A study of Mus musculus with 9 samples.

Results

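Blood cell transcripts were followed in endothelial cells sorted from the bone marrow of mice. The transcripts were 32 of the 52183 genes in the deposited table, chosen by symbol: 5 red cell genes, 9 neutrophil genes, 7 macrophage genes, 5 platelet genes, the pan-leukocyte gene Ptprc, and 5 genes that endothelium or other cells outside the blood are also known to express, which were kept apart (Car2, Lcn2, Cd68, Vcan and Gp1bb). Messenger RNA was measured in 9 libraries in 3 groups of 3. Young controls were 3 months old and aged controls 18 months old. The remaining group, also 18 months old, carries the label of a Thbs1 knockout, Thbs1 being the gene of the secreted matrix protein thrombospondin-1. All mice, controls included, received an antibody to VE-cadherin, a junction protein of endothelium, into the circulation before the marrow cells of the long bones were sorted. The labels name no strain, no allele, no further sorting marker, and not whether libraries are separate mice. The p-values here set differences between group means against the spread between libraries within groups. Whether they speak for separate mice is not known. Library preparation used a full-length cDNA kit for very small amounts of RNA.

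Each blood lineage carries transcripts that make up a large part of its own RNA. Immature red cells and reticulocytes are filled with globin messenger RNA. Developing neutrophils switch on the enzymes of the primary granules first, the proteins of the secondary granules next, and genes of the mature cell last. Macrophages of the marrow produce the complement component C1q, and platelets inherit the messenger RNA of the megakaryocyte, including chemokines. Marrow sinusoids are thin-walled vessels through which blood cells leave the marrow, and both macrophages and megakaryocytes sit against their outer wall.

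The labelled identity of the cells was checked with 13 endothelial genes, including Cdh5, the gene of VE-cadherin. Their summed level ran from 2274.05 to 2621.5 FPKM, fragments scaled by gene length and library depth, a 1.15-fold range over the 9 libraries. Depth, recovered from the FPKM steps, ran from 22160000 to 30410000 fragments. Thbs1 went against its label: it stood at 3.89 to 4.55 FPKM across young controls, at 0.67 to 1.17 FPKM across aged controls, and at 19.45 to 25.63 FPKM across libraries labelled knockout. These are called libraries labelled knockout throughout. In bulk RNA, fewer cells of a type and less RNA per cell cannot be told apart.

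The promoters of the globin genes and of a pair of secondary granule genes, Ngp and Ltf, are shown. No promoter of a primary granule gene is shown, nor that of Camp, the remaining secondary granule gene of the neutrophil list. Whether promoter sequence bears on how these transcripts varied over the libraries was not tested. Each run is the 120 bases before the RefSeq start on GRCm38.p6, 5′ to 3′ on the gene's strand, and capitals mark motifs found on either strand: the CACCC box, the CCAAT box, the TATAA box, the GATAA motif and the TTGCNNAA motif. Motifs may overlap, as the CCAAT box and the TTGCNNAA motif do in Ltf. Hba-a1 lies at chr11:32283552-32283671 and Hba-a2 at chr11:32296372-32296491, both on the plus strand. Hbb-bs lies at chr7:103827929-103828048 and Hbb-bt at chr7:103813924-103814043, both on the minus strand. Ngp lies at chr9:110419688-110419807 and Ltf at chr9:111019172-111019291, both on the plus strand.
Hba-a1: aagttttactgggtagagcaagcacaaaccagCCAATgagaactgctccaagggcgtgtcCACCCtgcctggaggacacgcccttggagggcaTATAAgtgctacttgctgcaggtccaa
Hba-a2: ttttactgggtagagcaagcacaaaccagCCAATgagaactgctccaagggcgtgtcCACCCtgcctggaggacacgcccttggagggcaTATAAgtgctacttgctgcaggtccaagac
Hbb-bs: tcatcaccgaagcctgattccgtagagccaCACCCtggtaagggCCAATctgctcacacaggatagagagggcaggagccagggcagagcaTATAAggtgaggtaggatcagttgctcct
Hbb-bt: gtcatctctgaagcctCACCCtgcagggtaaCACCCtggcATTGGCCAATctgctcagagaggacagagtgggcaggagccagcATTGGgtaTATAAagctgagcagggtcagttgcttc
Ngp: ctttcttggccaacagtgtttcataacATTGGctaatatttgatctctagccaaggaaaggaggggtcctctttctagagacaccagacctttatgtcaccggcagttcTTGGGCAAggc
Ltf: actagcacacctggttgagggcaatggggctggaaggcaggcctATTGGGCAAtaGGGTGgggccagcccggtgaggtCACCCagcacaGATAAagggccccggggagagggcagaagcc

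The windows of Hba-a1 and Hba-a2 were identical in 117 of 117 compared bases after an offset of 3 bases, so their matches are not separate. Windows were taken from RefSeq for 27 of the 32 genes. Chromosome 18, where Csf1r lies, was left out for these genes but not for all promoters searched. CACCC, a box found in globin promoters, was in the windows of 5 of 5 red cell genes and of 31.7% of all 32851 promoters searched. It was not particular to red cell genes, being also in 6 of 9 neutrophil windows and in 18 of the 27 windows in all. CCAAT was in 4 of 5 red cell windows, in 3 of 9 neutrophil windows and in 21.3% of all promoters. TATAA was in 4 of 5, 4 of 9 and 11.8%. TTGCNNAA, the core of the motif bound by C/EBP factors, was in 2 of 9 neutrophil windows and in 4.15% of all promoters. Those 2 windows are the pair shown, Ngp and Ltf. The window of Camp had no such match, and that of Cd68, a gene kept apart, had 1. GATAA was in 10.5% of all promoters, and in the windows of Alas2, S100a9, Ltf and Gp9. These matches are a description of the letters in the windows.

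The adult globin chains were the most abundant red cell transcripts. Hbb-bs, an adult beta-globin gene (ENSMUSG00000052305, GRCm38 chromosome 7, 103826534 to 103828096), stood at 72.59, 67.37 and 73.43 FPKM across young controls, at 115.00, 30.91 and 69.28 FPKM across aged controls, and at 25.66, 107.78 and 41.50 FPKM across libraries labelled knockout. The young controls lay close together, and each of the other groups held libraries both above and below all 3 of them. Hba-a1, an alpha-globin gene (ENSMUSG00000069919, GRCm38 chromosome 11, 32283511 to 32284465), stood at 19.01, 18.96 and 19.44 FPKM across young controls, 38.35, 9.03 and 26.20 FPKM across aged controls, and 8.22, 33.49 and 11.08 FPKM across libraries labelled knockout. The order of the libraries within the aged controls and within the libraries labelled knockout was the same for both genes.

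Hba-a2, the neighbouring alpha-globin gene, read 10.29, 13.12 and 12.87 FPKM across young controls, 16.64, 5.17 and 16.59 FPKM across aged controls, and 5.73, 17.90 and 6.61 FPKM across libraries labelled knockout. Hbb-bt, the neighbour of Hbb-bs, read 10.95, 11.45 and 10.48 FPKM across young controls, 12.20, 6.89 and 14.47 FPKM across aged controls, and 3.96, 17.64 and 6.01 FPKM across libraries labelled knockout. For all 4 globins the second aged control was the lowest of its group, and the second library labelled knockout the highest of its own. The transcripts of Hba-a1 and Hba-a2 were identical in 537 of 538 aligned bases, and those of Hbb-bs and Hbb-bt in 553 of 582, so the split of reads within each pair is uncertain. Between the alpha and beta genes the proportions were steady, with Hbb-bs at 2.64 to 3.82 times Hba-a1, a 1.44-fold range, while the 4 globins summed ran over a 4.18-fold range.

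The 4 globins together came to 112.84, 110.90 and 116.22 FPKM across young controls, to 182.19, 52.00 and 126.54 FPKM across aged controls, and to 43.57, 176.81 and 65.20 FPKM across libraries labelled knockout. The group means were 113.3 ± 2.69 FPKM, 120.2 ± 65.3 FPKM and 95.2 ± 71.5 FPKM (SD, n = 3 each), so the means lay within the SDs of the aged controls and of the libraries labelled knockout. The sum was 0.0142% to 0.053% of all FPKM of a library. Alas2, the enzyme that starts haem synthesis in red cell precursors, read 1.06, 1.06 and 1.15 FPKM across young controls, 0.73, 0.84 and 1.03 FPKM across aged controls, and 0.67, 2.24 and 0.40 FPKM across libraries labelled knockout. The aged controls lay below the young ones without overlap for Alas2, a log2 fold change of -0.17 ± 0.273 (SE), which did not pass the test (limma, adjusted p = 0.729). Exons of Alas2 overlap Apex2 on the other strand, and strand was not given for the counting.

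**Figure D1:**
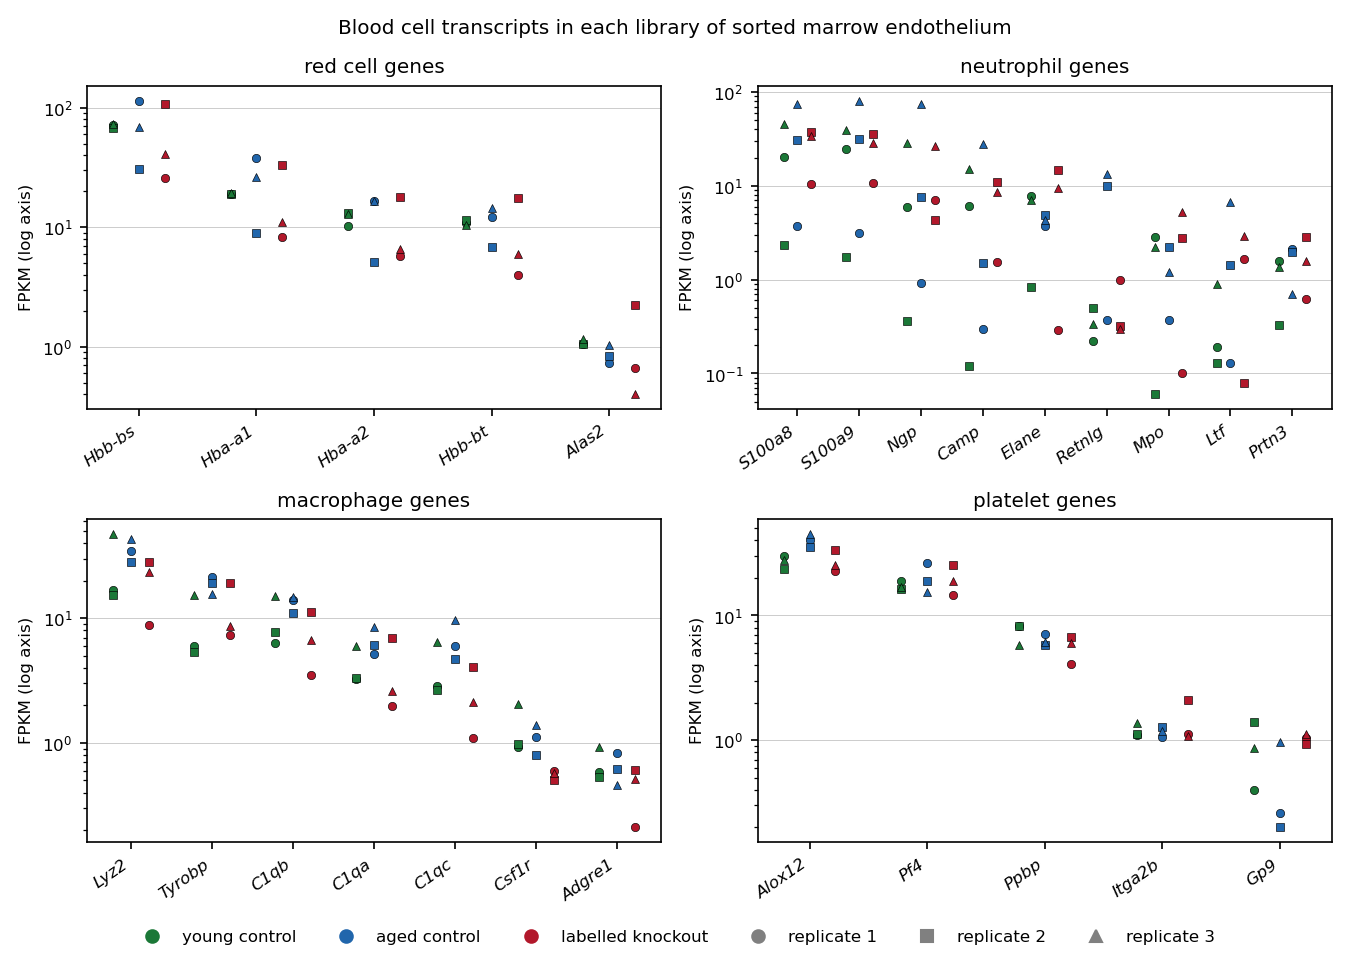
FPKM on a log axis for the 26 red cell, neutrophil, macrophage and platelet genes in 9 libraries, with colour for the group and shape for the replicate number. Globins of the 3 young controls coincide, S100a8 spans 2.33 to 45.37 FPKM within the young controls alone, and Pf4 stays between 14.60 and 26.16 FPKM over the 9 libraries.

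The neutrophil genes spread most widely, and within each group. S100a8, a calcium-binding protein of the neutrophil cytosol (ENSMUSG00000056054, GRCm38 chromosome 3, 90668978 to 90670035), stood at 20.41, 2.33 and 45.37 FPKM across young controls, 3.77, 31.06 and 74.91 FPKM across aged controls, and 10.39, 38.01 and 34.28 FPKM across libraries labelled knockout. Its partner S100a9 read 24.54, 1.76 and 39.70 FPKM, then 3.11, 31.76 and 81.12 FPKM, then 10.74, 36.10 and 28.42 FPKM in the same order. The second young control and the first aged control were low for both genes, and the third aged control was the highest of the 9. S100a9 stayed at 0.755 to 1.2 times S100a8 over the libraries.

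Among the secondary granule genes, Ngp, neutrophilic granule protein (ENSMUSG00000032484, GRCm38 chromosome 9, 110419747 to 110423012), read 5.98, 0.36 and 28.95 FPKM across young controls, 0.92, 7.61 and 75.29 FPKM across aged controls, and 7.07, 4.28 and 26.92 FPKM across libraries labelled knockout. Camp, the cathelicidin peptide, read 6.11, 0.12 and 14.97 FPKM, then 0.30, 1.5 and 28.23 FPKM, then 1.55, 11.02 and 8.57 FPKM in that order. Ltf, the iron-binding lactoferrin, read 0.19, 0.13 and 0.90 FPKM, then 0.13, 1.43 and 6.70 FPKM, then 1.68, 0.08 and 2.91 FPKM. The third library was the highest of its group for Ngp and Ltf in all 3 groups. Whether same-numbered libraries were handled together is not in the labels. The low values rest on few reads: Camp at 0.12 FPKM corresponds to 2 fragments and Ngp at 0.36 FPKM to 10.

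The primary granule genes were also lowest in the second young control within its group. Elane, neutrophil elastase (ENSMUSG00000020125, GRCm38 chromosome 10, 79886247 to 79888215), read 7.82, 0.84 and 7.15 FPKM across young controls, 3.76, 4.92 and 4.34 FPKM across aged controls, and 0.29, 14.91 and 9.59 FPKM across libraries labelled knockout. Mpo, myeloperoxidase, read 2.87, 0.06 and 2.23 FPKM, then 0.37, 2.22 and 1.21 FPKM, then 0.10, 2.79 and 5.21 FPKM in that order. Prtn3, proteinase 3, read 1.57, 0.33 and 1.35 FPKM, then 2.14, 1.97 and 0.70 FPKM, then 0.62, 2.83 and 1.57 FPKM. For Elane the aged controls, which spread over a wide range of S100a8, lay within 3.76 to 4.92 FPKM, and the first library labelled knockout was the lowest of the 9. Exons of Mpo and Prtn3 overlap Gm11505 and Plppr3 on the other strand, so their low values are uncertain.

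Retnlg, a resistin-like protein of mature neutrophils (ENSMUSG00000022651, GRCm38 chromosome 16, 48872621 to 48874496), was high in 2 libraries. It read 0.22, 0.50 and 0.34 FPKM across young controls, 0.37, 9.90 and 13.51 FPKM across aged controls, and 1.0, 0.32 and 0.30 FPKM across libraries labelled knockout. Aged controls 2 and 3 stood apart, and the first aged control overlapped the other groups. Other genes of mature neutrophils, all at low levels, differed in this and were named after their values were seen. In aged controls 2 and 3 Mmp8, a collagenase, read 0.94 and 1.91 FPKM against 0 to 0.57 FPKM in the other 7 libraries, and Ly6g, a surface marker, 0.46 and 0.65 FPKM against 0 to 0.14 FPKM. Mmp9, a gelatinase, read 0.59 and 1.15 FPKM there, with 0.72 FPKM in the second young control. Cxcr2, a chemokine receptor, read 0.56 and 0.09 FPKM there, and Padi4, a histone-modifying enzyme, 0.30 and 0.03 FPKM, the highest and the lowest of the 9 for both. The log2 fold change of Retnlg was 2.16 ± 0.71 for aged against young controls (limma, adjusted p = 0.0967) and -1.99 ± 0.71 for libraries labelled knockout against aged controls (limma, adjusted p = 0.129), so neither passed. Without the first aged control they became 3.22 (limma, adjusted p = 0.00154) and -3.06 (limma, adjusted p = 0.000779). Retnlg reached the mean of 1 FPKM needed for the test only through aged controls 2 and 3. The library left out is the aged control that overlapped the other groups, so these p-values are no support for a difference.

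The makeup of the neutrophil signal differed from library to library. Elane, Mpo and Prtn3 together made up 17.6%, 19.1% and 7.61% of the summed FPKM of the 9 neutrophil genes across young controls. They made up 42.2%, 9.86% and 2.19% across aged controls and 3.02%, 18.6% and 13.9% across libraries labelled knockout. The first aged control held the largest primary granule share and the third the smallest, though the 3 genes summed to 6.27 and 6.25 FPKM there. All 9 neutrophil genes summed to 14.87 FPKM in the first aged control and to 286.01 FPKM in the third, so these shares differ through the other genes. In the first aged control Ngp rests on 25 fragments and Camp on 5. Ngp, Camp and Ltf made up 17.6%, 9.49% and 31.8% across young controls, 9.08%, 11.4% and 38.5% across aged controls, and 30.8%, 13.9% and 32.6% across libraries labelled knockout. S100a8 and S100a9 were the largest part in all 9 libraries, with 46.3% to 68.0%. Elane ranged from 0.0279 to 0.997 times S100a8, a 35.7-fold range, against a 1.59-fold range for S100a9 over S100a8.

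**Figure D2:**
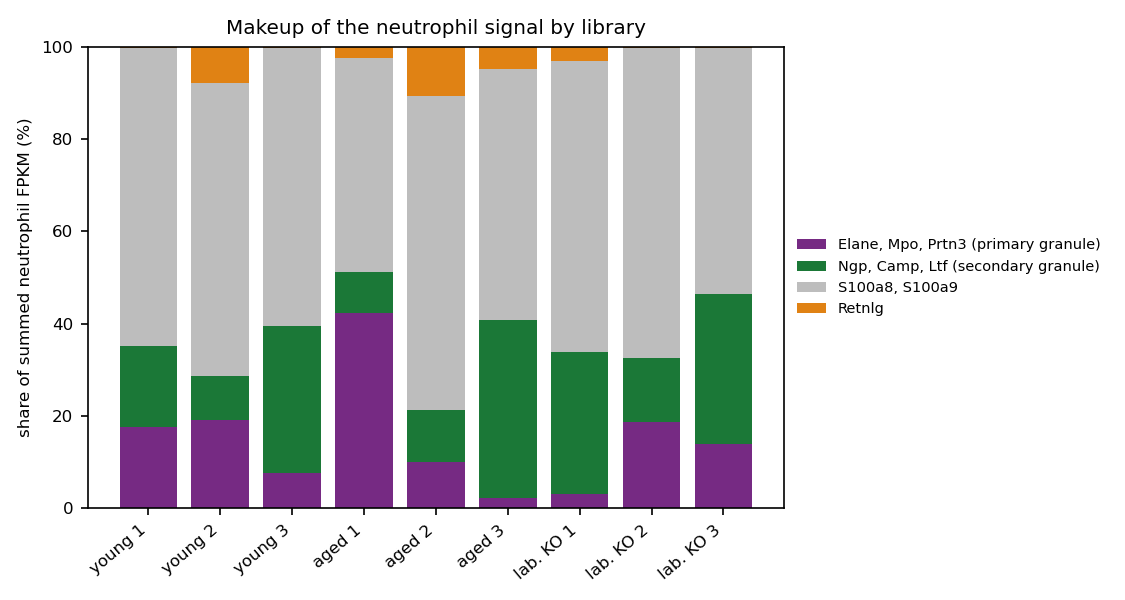
Share of the summed FPKM of the 9 neutrophil genes, in percent, held by primary granule genes, secondary granule genes, S100a8 with S100a9, and Retnlg, in each library (lab. KO: labelled knockout). The primary granule share runs from 2.19% in the third aged control to 42.2% in the first, where the summed primary granule levels are 6.25 and 6.27 FPKM.

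Among the macrophage genes, C1qb, one of the chains of C1q (ENSMUSG00000036905, GRCm38 chromosome 4, 136880129 to 136886187), read 6.31, 7.72 and 15.01 FPKM across young controls, 13.98, 11.03 and 14.77 FPKM across aged controls, and 3.48, 11.24 and 6.65 FPKM across libraries labelled knockout. C1qa, another chain gene, read 3.24, 3.32 and 6.0 FPKM, then 5.12, 6.13 and 8.45 FPKM, then 1.96, 6.96 and 2.61 FPKM in that order. C1qc, the remaining chain gene (ENSMUSG00000036896, GRCm38 chromosome 4, 136889804 to 136893065), read 2.85, 2.67 and 6.44 FPKM, then 6.03, 4.68 and 9.69 FPKM, then 1.09, 4.09 and 2.13 FPKM. For each chain the third young control stood above the other two, and the second library labelled knockout above the rest of its group. Only for C1qc did all libraries labelled knockout lie below all aged controls.

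The log2 fold changes of libraries labelled knockout against aged controls were -1.23 ± 0.371 for C1qc (limma, adjusted p = 0.0873), -0.92 ± 0.362 for C1qb (adjusted p = 0.161) and -0.76 ± 0.348 for C1qa (adjusted p = 0.217). None passed. Without the second library labelled knockout they were -1.56 (limma, adjusted p = 0.0351), -1.27 (adjusted p = 0.0483) and -1.19 (adjusted p = 0.0266), and all 3 passed. In that fit 1159 of all 11796 genes tested passed, where 565 passed with all libraries. The second library labelled knockout also had the greatest depth of the 9, 30410000 fragments, and the second highest globin sum. Its part in the result was not tested beyond leaving it out.

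Tyrobp, a signalling adaptor of myeloid and natural killer cells (ENSMUSG00000030579, GRCm38 chromosome 7, 30413760 to 30417585), read 5.97, 5.38 and 15.25 FPKM across young controls, 21.58, 19.30 and 15.61 FPKM across aged controls, and 7.33, 19.33 and 8.70 FPKM across libraries labelled knockout. The lowest aged control, at 15.61 FPKM, was just above the highest young one, at 15.25 FPKM. The log2 fold change of 1.13 ± 0.39 did not pass (limma, adjusted p = 0.106). Lyz2, the lysozyme of macrophages and neutrophils, read 16.71, 15.32 and 47.50 FPKM, then 34.29, 28.12 and 43.21 FPKM, then 8.79, 28.49 and 23.32 FPKM. Lyz2 is close in sequence to Lyz1, with 95.8% of aligned transcript bases identical, and its groups overlapped in all 3 comparisons. Of the tissue macrophage markers, Csf1r, the receptor for the growth factor M-CSF, ran from 0.50 to 2.07 FPKM on 88 to 286 fragments, and Adgre1, the F4/80 antigen, from 0.21 to 0.93 FPKM on 19 to 72 fragments. Csf1r stood at 0.93, 0.98 and 2.07 FPKM across young controls, 1.12, 0.80 and 1.39 FPKM across aged controls, and 0.59, 0.50 and 0.57 FPKM across libraries labelled knockout, below both control groups without overlap, and was not tested because its mean over the libraries was under 1 FPKM. Its exons overlap Hmgxb3 on the other strand.

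The platelet genes varied least. Pf4, platelet factor 4 (ENSMUSG00000029373, GRCm38 chromosome 5, 90772435 to 90773383), read 18.86, 16.32 and 16.90 FPKM across young controls, 26.16, 19.06 and 15.35 FPKM across aged controls, and 14.60, 25.22 and 18.84 FPKM across libraries labelled knockout. Ppbp, the neighbouring platelet chemokine gene, read 8.28, 8.16 and 5.8 FPKM, then 7.08, 5.84 and 6.08 FPKM, then 4.12, 6.77 and 6.0 FPKM. Itga2b, the integrin subunit of the platelet fibrinogen receptor, read 1.10, 1.13 and 1.37 FPKM, then 1.07, 1.28 and 1.18 FPKM, then 1.12, 2.11 and 1.08 FPKM. The groups overlapped for all 3 genes in all 3 comparisons. Gp9, a subunit of the von Willebrand factor receptor, ran from 0.20 to 1.39 FPKM and rests on 4 to 28 fragments per library. Pf4, Ppbp, Itga2b and Gp9 together ran over a 1.68-fold range.

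Alox12, the 12-lipoxygenase named for platelets (ENSMUSG00000000320, GRCm38 chromosome 11, 70241457 to 70255353), was more abundant per length than Pf4 in 9 of 9 libraries. It read 30.22, 23.77 and 27.66 FPKM across young controls, 40.44, 35.14 and 45.13 FPKM across aged controls, and 22.71, 33.78 and 25.28 FPKM across libraries labelled knockout. All aged controls lay above all other libraries. The log2 fold changes were 0.55 ± 0.156 for aged against young controls (limma, adjusted p = 0.0728) and -0.56 ± 0.156 for libraries labelled knockout against aged controls (limma, adjusted p = 0.0725). These comparisons share the aged controls, so the opposite signs are not independent, and against young controls the libraries labelled knockout differed by -0.01 ± 0.156 (limma, adjusted p = 0.991). Without the second library labelled knockout, both passed, at 0.55 (limma, adjusted p = 0.0344) and -0.72 (limma, adjusted p = 0.0179). In that fit 1039 and 1159 of all 11796 genes tested passed, where 471 and 565 passed with all libraries. Alox12 stood at 16.0 to 38.2 times Itga2b, and the other platelet genes did not separate the groups as it did.

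**Figure D3:**
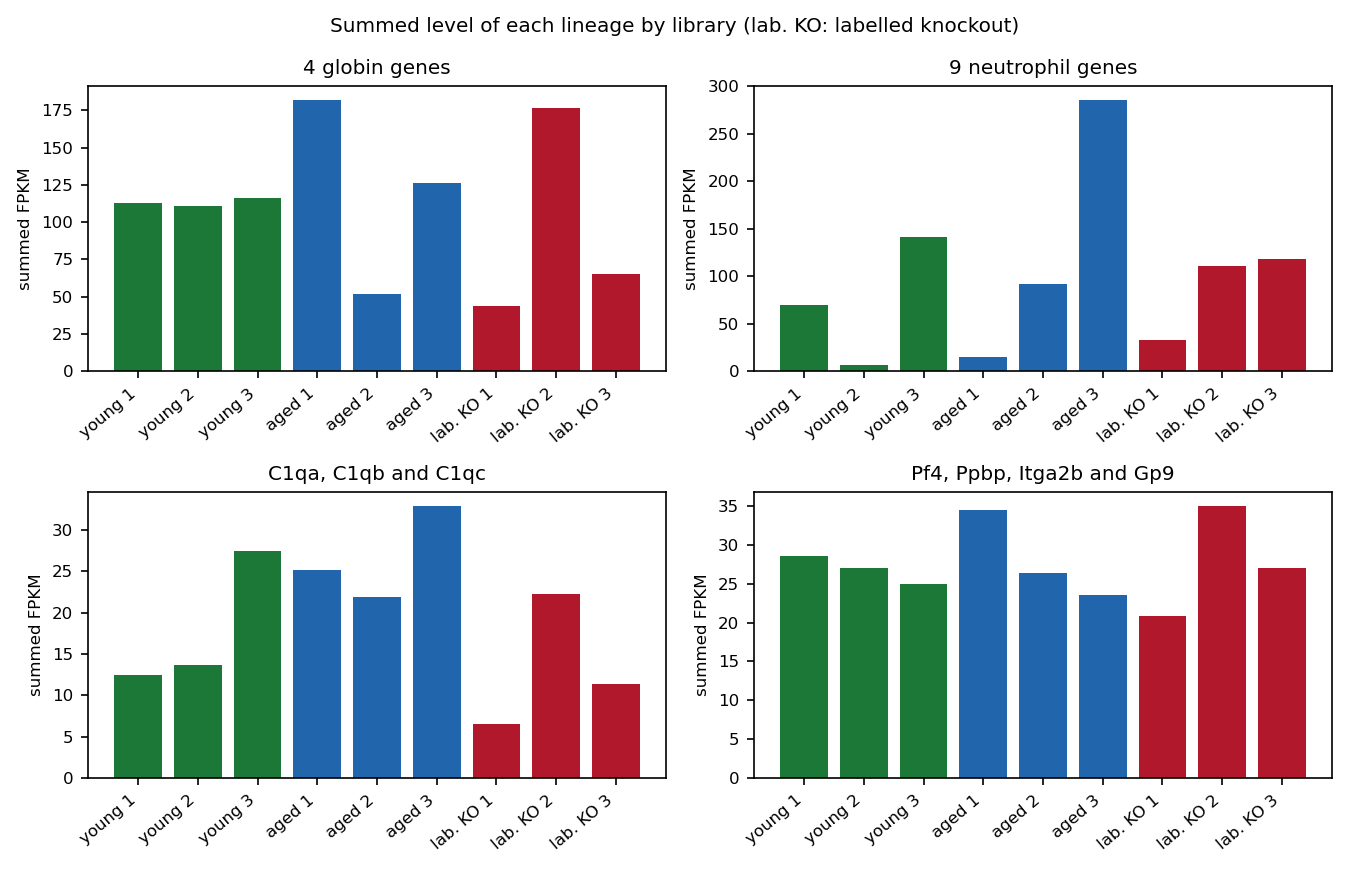
Summed FPKM of 4 globins, 9 neutrophil genes, the C1q chains and 4 platelet genes (Pf4, Ppbp, Itga2b and Gp9) in each library; each bar is 1 library and axes start at 0. The neutrophil sum runs from 6.43 FPKM in the second young control to 286.01 FPKM in the third aged control, and the platelet sum from 20.89 to 35.03 FPKM.

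Ptprc, the CD45 antigen of leukocytes, was low in every library. It read 0.12, 0.08 and 0.13 FPKM across young controls, 0.10, 0.11 and 0.06 FPKM across aged controls, and 0.06, 0.03 and 0.03 FPKM across libraries labelled knockout, from 15 to 57 fragments per library. The libraries labelled knockout lay below the young controls without overlap, and the gene was not tested. FPKM of Ptprc is divided by a summed exon length of 18313 bases, while its longest coding transcript has 5074, which lowers the value. The highest library for the neutrophil genes, the third aged control, had 0.06 FPKM of Ptprc.

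Of the genes kept apart, Car2, carbonic anhydrase 2 of red cells and of several other cell types (ENSMUSG00000027562, GRCm38 chromosome 3, 14886273 to 14900770), was the most abundant of the 32 genes. It read 128.81, 127.30 and 120.55 FPKM across young controls, 129.04, 139.04 and 116.37 FPKM across aged controls, and 108.85, 111.58 and 93.43 FPKM across libraries labelled knockout. The libraries labelled knockout lay below both control groups without overlap, with log2 fold changes of -0.29 ± 0.101 against aged controls (limma, adjusted p = 0.123) and -0.26 ± 0.101 against young controls (limma, adjusted p = 0.467). Neither passed. The second aged control had the highest Car2 and the second lowest globin sum, and the second library labelled knockout was the highest of its group for both.

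Cd68, a lysosomal protein of macrophages, read 10.57, 9.64 and 19.18 FPKM across young controls, 16.66, 9.82 and 7.48 FPKM across aged controls, and 11.33, 12.35 and 16.12 FPKM across libraries labelled knockout. It was highest in the third young control, as C1qb and Lyz2 were, and lowest in the third aged control, where the C1q sum was the highest of the 9. Lcn2, lipocalin 2, a secondary granule protein that other cells also secrete, ran from 0.07 to 3.38 FPKM with its highest value in the third aged control. Vcan, the matrix proteoglycan versican, ran from 0 to 0.09 FPKM, and all aged controls lay below all young ones. Gp1bb, a further subunit of the von Willebrand factor receptor, ran from 0.04 to 0.23 FPKM, and its exon overlaps Sept5 on the same strand.

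The libraries ranked differently from lineage to lineage. The third aged control was the highest of the 9 for 6 of 9 neutrophil genes, the second library labelled knockout for 3 of 5 red cell genes, and the third young control for 4 of 7 macrophage genes. The second young control was the lowest of the 9 for 6 of 9 neutrophil genes while its globin sum of 110.90 FPKM was close to those of the other young controls. The first library labelled knockout was the lowest of the 9 for 5 of 7 macrophage genes and for 13 of all 32. Within its group, the second library labelled knockout was the highest for 5 of 5 red cell, 6 of 7 macrophage, 4 of 5 platelet and 5 of 9 neutrophil genes.

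The spread between libraries of a group was set beside that of all genes tested. The within-group SD on the log2(FPKM + 1) scale had a median of 0.17 over the 11796 genes whose mean reached 1 FPKM, and a 95th percentile of 0.47. Of the 32 genes 25 had that mean, and the filter is on the mean, so low genes with a single high library can pass it. Above the 95th percentile lay 9 of 9 neutrophil, 4 of 5 red cell and 5 of 5 macrophage genes tested, and 0 of 4 platelet genes. Ngp had an SD of 2.14, Camp of 1.91, S100a9 of 1.82 and S100a8 of 1.73. Hba-a1 had 0.83, Lyz2 0.73 and C1qc 0.56, against 0.31 for Pf4, 0.22 for Alox12 and 0.11 for Car2.

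**Figure D4:**
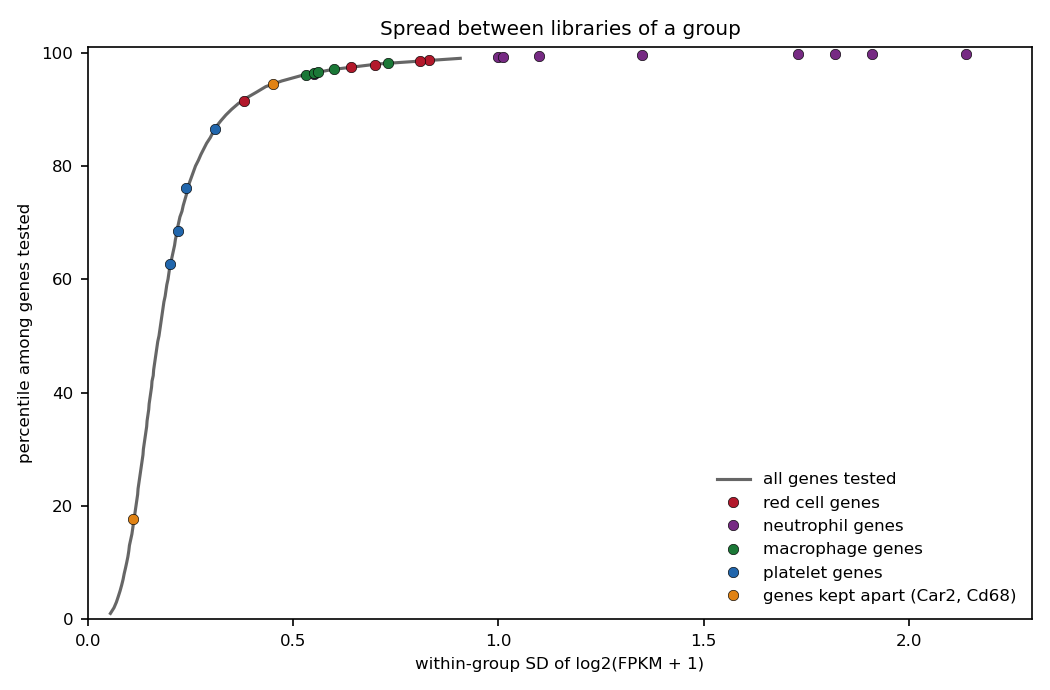
Within-group SD of log2(FPKM + 1) on the horizontal axis and its percentile among 11796 genes tested on the vertical axis, with the curve of all genes tested and 1 point per blood cell gene tested. All neutrophil genes lie at or above an SD of 0.55, and the platelet genes at or below 0.31.

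Differences between the groups were tested with limma over all 11796 genes. Of the 25 blood cell genes tested, 0 passed an adjusted p of 0.05 in any comparison, where 3.99% of all genes tested passed for aged against young controls, 4.79% for libraries labelled knockout against aged controls and 0.212% for libraries labelled knockout against young controls. With each library left out in turn, the calls over all genes ran from 5 to 1039, from 197 to 1159 and from 11 to 31 in the same order, so these shares move with single libraries. The counts of 1039 and 1159 are without the second library labelled knockout, 5 is without the first young control, and 197 is without the first library labelled knockout. At an unadjusted p under 0.05 the counts were 3, 5 and 1 of 25, where all genes tested gave 27.7%, 24.1% and 9.27%. A limma voom fit of recovered fragments also called 0 of them in each comparison. Groups did not overlap for 4, 4 and 3 of all 32 genes, beside 35.7%, 23.2% and 22.4% of genes tested. Those above in aged controls were Tyrobp and Alox12, and those below were Alas2 and Vcan. Libraries labelled knockout lay below aged controls for C1qc, Csf1r, Alox12 and Car2, a pattern that 11.1% of genes tested showed. They lay below young controls for Csf1r, Ptprc and Car2, as did 14.0% of genes tested. Exact permutation of 3 against 3 libraries cannot go below a two-sided p of 0.1, so single genes were tested in the pooled fit alone.

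By lineage, the median log2 difference of aged against young controls was -0.07 for red cell, 0.60 for neutrophil, 0.56 for macrophage and -0.01 for platelet genes, beside -0.05 over all genes tested. For libraries labelled knockout against aged controls it was -0.36, 0.07, -0.76 and -0.04 in the same order, beside 0. Both comparisons use the aged controls. For libraries labelled knockout against young controls it was -0.40, 0.40, -0.33 and 0.12, beside -0.03. The errors of single genes were wide: 0.60 ± 1.11 for S100a8 (limma, adjusted p = 0.757) and -0.18 ± 0.52 for Hbb-bs (limma, adjusted p = 0.856) in aged against young controls. Differences of this size were not detectable at this spread with 3 libraries a group.

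**Figure D5:**
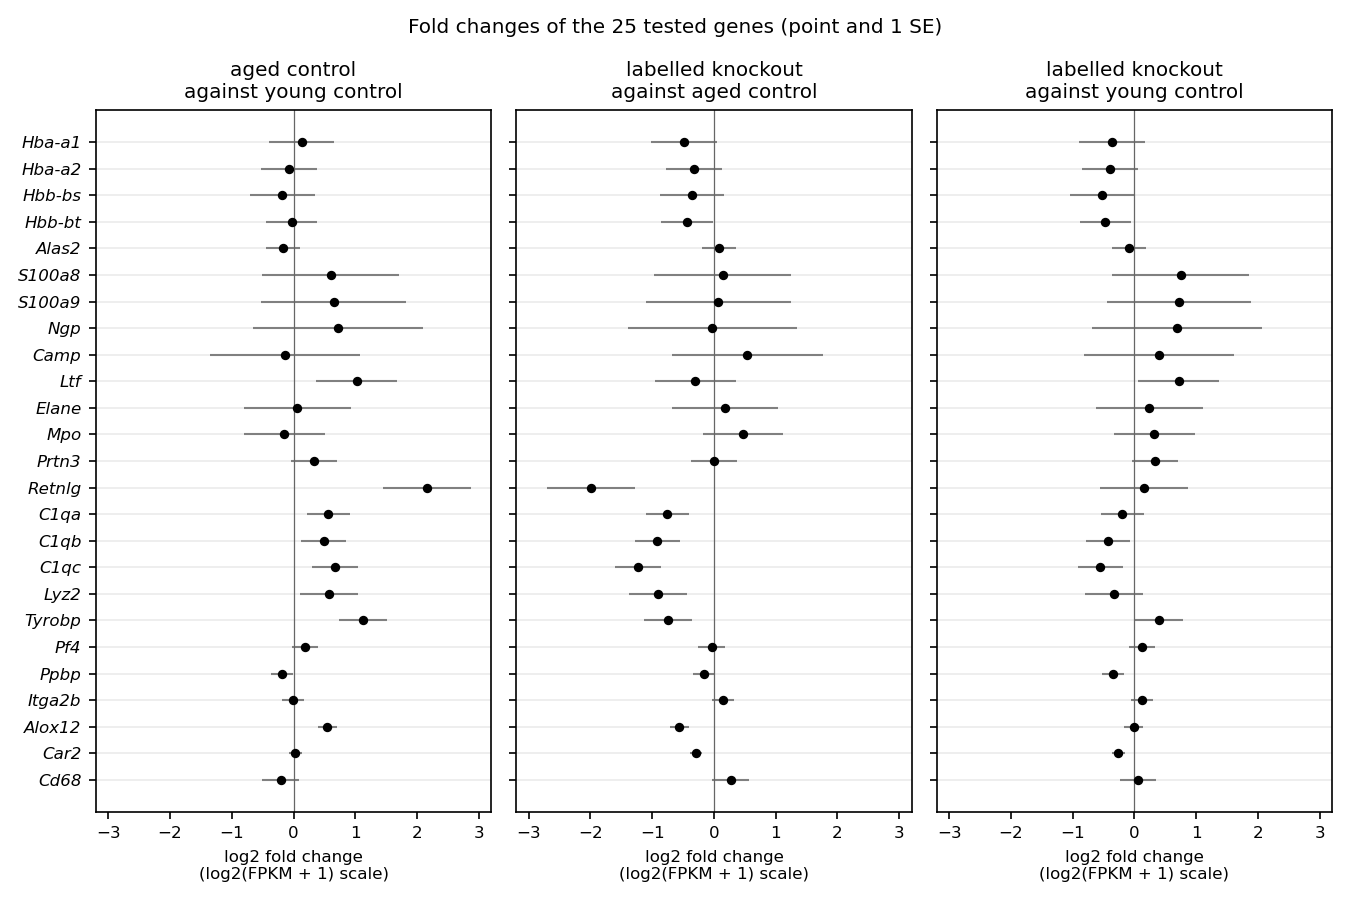
Log2 fold change on the log2(FPKM + 1) scale of the 25 blood cell genes tested, as points with 1 SE either side, in 3 comparisons. Bars of the neutrophil genes are the longest (1.37 for Ngp) and those of Car2 the shortest (0.101), and no gene passed the test.

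Other genes of each lineage were read from lists of 10 to 15 genes. Of the other red cell genes, 14 were in the table and 3 had a mean of at least 1 FPKM. Tfrc, the transferrin receptor, which dividing cells of many types carry, fell in aged controls from a mean of 4.15 to 1.88 FPKM, a log2 fold change of -0.84 ± 0.181 (limma, adjusted p = 0.0416). It was higher in the libraries labelled knockout, at 5.43 FPKM, by 1.13 ± 0.181 (limma, adjusted p = 0.00934). The fall with age was lost in 10 of 17 alternatives and the later difference in 1 of 17. The adjusted p of Tfrc over alternatives ran from 0.00777 to 0.15 and from 0.000928 to 0.0556. The others of highest level, the mitochondrial iron carrier Slc25a37 and the red cell enzyme Bpgm, ran from 6.76 to 11.22 FPKM and from 3.58 to 6.72 FPKM and did not pass. The 10 red cell genes not kept apart, among them Klf1 and Rhag, had means under 1 FPKM each. Their sum was 2.62, 5.75 and 3.10 FPKM across young controls, 5.26, 7.98 and 9.36 FPKM across aged controls, and 2.48, 5.36 and 5.30 FPKM across libraries labelled knockout. Its order was that of the globins within the libraries labelled knockout, where 5.36 and 5.30 FPKM lay close together, and not within the aged controls. The median log2 difference of these 10 genes was 0.35 for aged against young controls. It was -0.28 for libraries labelled knockout against aged controls. Aged controls lay above young ones without overlap for 3 of the 10 and below for 0, beside 35.7% of genes tested in either direction. These 10 genes were not tested.

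Of 15 other neutrophil genes 4 were tested and 0 passed in any comparison. Chil3, a chitinase-like protein of developing neutrophils and some macrophages, read 2.17, 0.08 and 9.11 FPKM across young controls, 2.07, 0.19 and 7.18 FPKM across aged controls, and 0.50, 5.34 and 5.40 FPKM across libraries labelled knockout. It was low in the second young control, as S100a8 was, and also in the second aged control, where Retnlg stood at 9.90 FPKM. Ly6c2, a surface protein of monocytes and other myeloid cells, ran from 0.12 to 6.57 FPKM with its highest value in the first aged control.

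Of 15 other monocyte and macrophage genes 6 were tested and 0 passed. Libraries labelled knockout lay below aged controls without overlap for 3 of the 15 and above for 0, where 11.1% of genes tested lay below. Fcer1g, the common signalling chain of Fc receptors, ran from 153.69 to 338.22 FPKM. It was above every macrophage gene of the 32 in every library. Its range was 2.2-fold, beside 5.04-fold for the summed C1q chains. All aged controls lay above all other libraries for Fcer1g. Its log2 fold change was 0.45 ± 0.173 for aged against young controls (limma, adjusted p = 0.137). It was -0.64 ± 0.173 for libraries labelled knockout against aged controls (limma, adjusted p = 0.0649). The others of that list differed widely from each other in level. Mrc1, Cd14 and Mertk, kept apart because endothelium is also known to express them, ran from 106.84 to 182.16, from 28.91 to 42.99 and from 10.64 to 16.18 FPKM. Aif1, an actin-binding protein of macrophages, ran from 0.65 to 2.66 FPKM, Cd163, the haemoglobin scavenger receptor, from 0.01 to 0.28 FPKM, Timd4, a receptor for dying cells, from 0 to 0.52 FPKM, and Cx3cr1, the fractalkine receptor, from 0.04 to 0.59 FPKM.

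Of 15 other megakaryocyte and platelet genes 6 were tested. Mmrn1, multimerin 1 of platelets and endothelium, fell in aged controls from a mean of 70.3 to 35.1 FPKM, a log2 fold change of -0.98 ± 0.182 (limma, adjusted p = 0.0347, from 0.00956 to 0.132 over 18 alternatives, 7 of which lost the call of Mmrn1). Selp, P-selectin of platelets and endothelium, ran from 126.56 to 191.83 FPKM and did not pass. The 11 genes of that list not kept apart summed to 6.03 to 11.41 FPKM, and the receptor genes Gp5, Gp6 and Gp1ba stayed at or below 0.36 FPKM.

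Of 12 other pan-leukocyte genes 8 were tested. Libraries labelled knockout lay below aged controls without overlap for 5 of the 12, Cd52 among them, and 0 passed. That pattern was shown by 11.1% of genes tested. Aged controls lay above young ones for 2 of the 12 and below for 1, beside 35.7% of genes tested in either direction. Cd52, a surface antigen of leukocytes, rose in aged controls from a mean of 0.817 to 2.87 FPKM, a log2 fold change of 1.09 ± 0.245 (limma, adjusted p = 0.0435). Over 17 alternatives the adjusted p of Cd52 ran from 0.0197 to 0.153, and 9 lost the call, among them each that left out a control library. It read 0.77, 0.48 and 1.20 FPKM across young controls, 2.47, 3.79 and 2.36 FPKM across aged controls, and 0.87, 2.22 and 1.02 FPKM across libraries labelled knockout. Lcp1, the actin-bundling plastin, ran from 18.41 to 24.30 FPKM and Cd53, a tetraspanin, from 2.69 to 7.98 FPKM. Of 10 T, NK and B cell genes 1 was tested, Cd79a of the B cell receptor, at 1.34 to 2.48 FPKM, followed by Cd79b at 0.42 to 1.64 FPKM. Cd3d, Cd3e and Cd3g of the T cell receptor stayed at or below 0.10 FPKM. Among the 13 endothelial genes the most abundant were Esam, at 402.79 to 528.77 FPKM, and Eng, at 313.72 to 437.31 FPKM. Erg alone of those 13 passed, at a log2 fold change of -0.60 ± 0.137 in aged controls (limma, adjusted p = 0.0447, lost in 10 of 18 alternatives). The part of blood cells carried through the sort in any of these values was not tested.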

How the data were processed

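The authors deposited FPKM values, fragments scaled by gene length and library depth, for 52183 genes in 9 libraries. The submitters' processing notes list STAR, edgeR and FastQC 0.11.5 as tools, and mm10 and GRCm38 as builds, per the labels. How reads were counted, with or without strand and at near copies, is not given in the sources used here. Gene identifiers were matched to GENCODE M21, which gave loci and exon lengths.

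Values were tested as log2(FPKM + 1) with limma 3.58.1 in R 4.3.3. All 9 libraries entered a single fit with a mean per group and a trend. The test took 11796 genes with mean FPKM of 1 or more, Benjamini-Hochberg adjustment and a threshold of 0.05. Since the unit is FPKM, a voom fit of recovered fragments served only as an alternative. Fold changes on this scale understate changes of low genes.

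Depth was recovered from genes of 60 to 400 bases, where 99.4% to 99.7% of low values per library were whole fragments within 0.1. Fragments behind a value show counting error only.

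The 32 genes and the other lists were chosen with earlier results of these data known. Members with mean FPKM of 1 or more are given in every library. From the other lists, called genes (at most 3 a direction) and the 2 of highest mean are named. A gene that this rule names is not reported here. Mmp8, Ly6g, Mmp9, Cxcr2, Padi4 and other genes named from those lists outside this rule were chosen after their values were seen. Of 127 listed symbols 126 were found, and the remaining gene was not analysed here. Promoters are from RefSeq.

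Alternatives were pseudocounts of 0.1 and 5, a filter at mean FPKM of 5 or none, 2 scalings, fits of 2 groups, the replicate number as a block, voom, and each library left out. Medians by lineage under these were added after seeing the data.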

Additional observations from a re-analysis of the deposited data

How the results depend on the processing

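Of 1326 recomputed fold changes of the blood cell genes, 1319 stayed on the same side of the threshold, 7 passed only in an alternative, all with a library left out, and 0 reversed while called. The 9 settings that kept all libraries called 0 of these genes. With each library left out, they called 0 to 1, 0 to 4 and 0 for aged against young controls, libraries labelled knockout against aged controls, and libraries labelled knockout against young controls. The genes were Retnlg without the first aged control, and C1qa, C1qb, C1qc and Alox12 without the second library labelled knockout.

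Counts over all genes moved more. For aged against young controls the 471 calls became 39 with no filter, 841 after rescaling each library to the same total without blood cell genes, 716 with only the groups compared in the fit, and 5 to 1039 with each library left out (5 without the first young control). For libraries labelled knockout against aged controls the 565 calls became 146 with no filter, 149 with only the groups compared, and 197 to 1159 with each library left out. For libraries labelled knockout against young controls the 25 calls became 15 with no filter, 12 at a mean of at least 5 FPKM, and 11 to 31 with each library left out. The counts 1039 and 1159 are both without the second library labelled knockout. The causes were not tested. Median-ratio scaling gave 215 higher and 200 lower for aged against young controls, where 141 and 330 were reported, and the rescaling gave 138 and 703 and shifted the median of all genes to -0.13. For libraries labelled knockout against aged controls the rescaling gave 430 higher and 182 lower, where 328 and 237 were reported.

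Correlations of deviations between same-numbered libraries ran from -0.13 to 0.12, so over all genes tested these libraries did not deviate together. Whether same-numbered libraries were handled together is not in the labels, and these correlations cannot settle it. With the replicate block the calls over all genes were 183, 400 and 23, and those of blood cell genes 0 in each comparison. Of 234 recomputed medians by lineage, chosen after seeing the data, 10 moved by more than the spread between libraries, among them the platelet median of libraries labelled knockout against aged controls, which was 0.14 without the first and -0.24 without the second library labelled knockout.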
